A study of Homo sapiens with 6 samples.

Results

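The genes described here are 47 components of the TGF-beta and BMP pathways, chosen by symbol from a list of ligands, receptors, SMAD proteins, SMAD partners, extracellular antagonists, latency proteins and ID target genes. All 47 were present among the 29436 gene symbols of the count table. The cells were hemogenic endothelial cells, the endothelial cells that give rise to blood, derived from the human embryonic stem cell line H1 by co-culture with AGM-S3 stroma. The untreated group was 3 libraries grown without alpha lipoic acid, and the lipoic acid group was 3 libraries from cultures whose blood-inducing medium contained 100 µg/ml of this antioxidant. In both groups, cells carrying CD34, KDR and CD144 and lacking CD43 were sorted on day 8, and polyA RNA of 1000 cells per library was turned into amplified cDNA and sequenced. All libraries came from a single cell line, and the labels do not say whether replicates were separate cultures, so p-values measure only the spread between these libraries.

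Ligands of this family signal through complexes of type I and type II receptor kinases at the cell surface. TGF-beta and activin ligands act mainly through the receptor-regulated SMAD2 and SMAD3, and BMP ligands through SMAD1, SMAD5 and SMAD9. Each kind binds the shared SMAD4 and enters the nucleus. SMAD6, SMAD7, SKIL, PMEPA1 and the ID genes are known targets of these pathways, and several of them feed back to dampen the signal. Endothelial cells also carry the type I receptor ACVRL1 and the co-receptor endoglin (ENG), and BMP4 is a standard inducer of mesoderm and blood in stem cell cultures.

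Levels are CPM, a gene's counts scaled to a common library size with TMM factors, in the order of replicates 1, 2 and 3 of each group. A gene was called, or said to rise or fall with lipoic acid, when the edgeR quasi-likelihood test gave an adjusted p under 0.05 over all 13780 genes tested. Of the 47 members 44 passed the filter on low counts, while CHRDL1, GREM1 and LTBP3 did not. The pathway did not move in 1 direction: 14 members rose (31.8% of the 44, against 24.2% of all genes tested), 15 fell (34.1% against 23.3%) and 15 were not called. In all, 65.9% of tested members were called against 47.4% of all genes, and 34 of 44 members (77.3%) had CPM ranges that stayed apart between groups, against 59.1% of all genes. The median log2 fold change was -0.07 over the tested members and -0.01 over all genes. Most changes were small, since 25 of the 29 called members changed by less than 2-fold.

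Fewer rises were called under a correction for GC content and transcript length. When each library was corrected for a trend of counts with GC content and transcript length (the GC and length correction), 8 members rose and 16 fell. The rises of TGFBR3, SMAD3, SMAD5, SMURF1, SMURF2 and TGIF1 and the fall of SKI were then not called, while falls of TGFBR1 and ACVR2A were. The fold changes moved unequally: SMAD5 went from a log2 fold change of 0.26 to 0.07 and SMURF2 from 0.27 to 0.09, but SKI only from -0.46 to -0.42 (adjusted p = 0.0719). Over all genes, 41% of calls were rises under the correction, against 50.9% without it. The fitted trend held a constant for each library, so the correction also recentred the libraries. The median log2 fold change over all genes moved by -0.098. The part of this recentring in the lost calls was not tested. A set of 19 members kept its call and direction in each of the 19 other settings tried: 7 that rose (BMP2, BMP6, INHBA, ACVR1, BMPR1A, BMPER and ID4) and 12 that fell (TGFB2, BMP4, TGFBR2, ENG, BMPR2, SMAD6, SMAD7, SKIL, PMEPA1, LTBP1, LTBP4 and ID1).

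**Figure D1:**
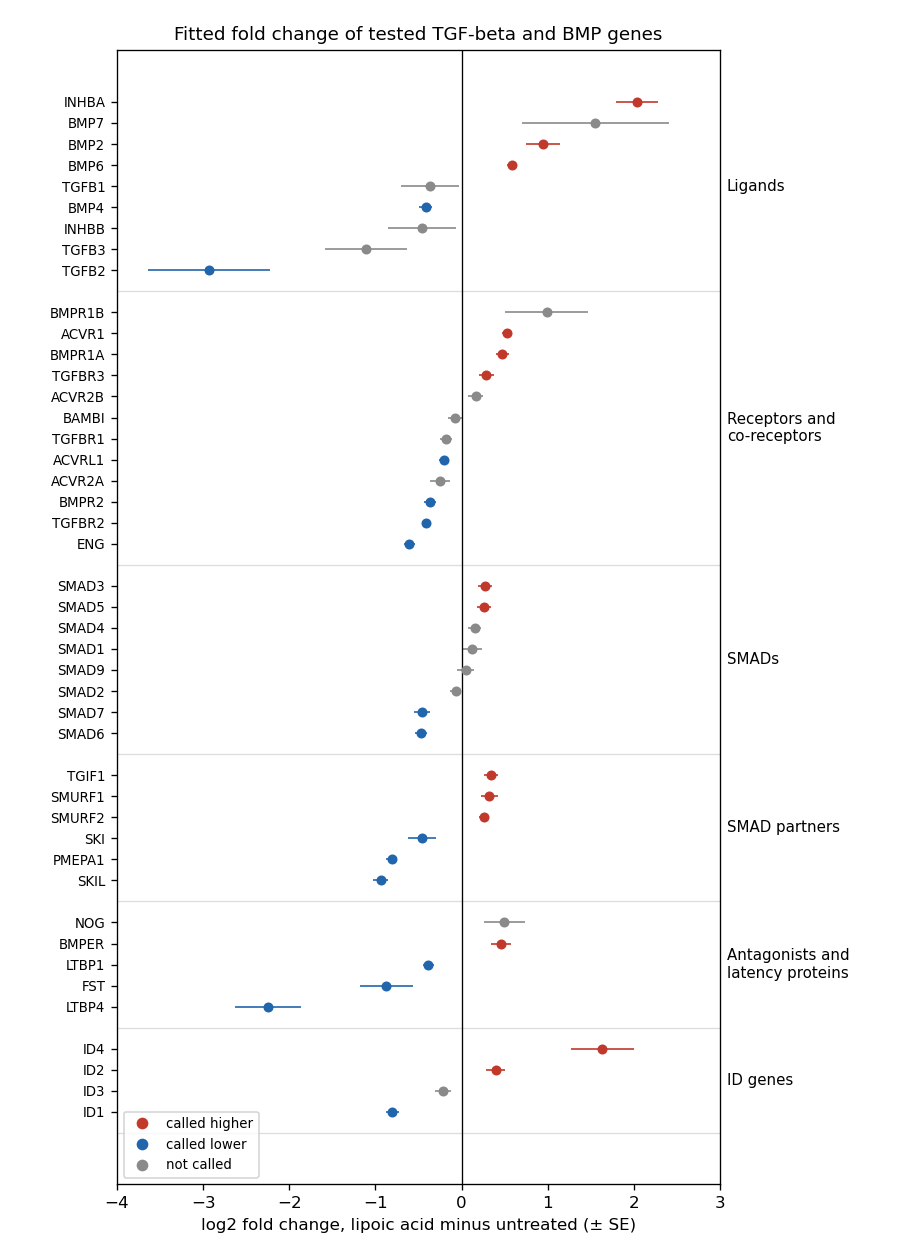
Fitted log2 fold change (lipoic acid minus untreated, horizontal axis) of the 44 tested members, grouped by class, with bars for ± 1 SE; red marks the 14 called higher, blue the 15 called lower and grey the 15 not called. INHBA at 2.04 has the highest value and TGFB2 at -2.94 the lowest, and every class holds members on each side of 0.

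Total counts ran from 30041494 to 41351951 per library. Even numbers made up 99.13% to 99.34% of the nonzero counts of all lipoic acid libraries and of untreated replicate 1, but 52.01% and 51.97% of those of the other untreated libraries. In a comparison of the 4 libraries of even counts alone, with untreated replicate 1 as the sole control and assumed to vary like the others, 26 of the 29 called members were called in the same direction. The positive markers of the gate split: CD34 and CDH5 (CD144) were lower with lipoic acid (1.78-fold and 1.55-fold) and KDR was higher (1.17-fold). SPN, which encodes CD43, was at 0 in every library. Of the endothelial markers outside the gate, PECAM1 was lower (1.27-fold) and TEK higher (1.20-fold). Markers of other cells moved in the same libraries. Of 9 endoderm and hepatic markers, 6 rose and SOX17, also an endothelial gene, fell; the summed level was 65.5 to 74.8 CPM untreated and 159 to 225 CPM with lipoic acid. Of 7 epithelial markers 6 rose (226 to 249 CPM and 410 to 476 CPM), a sum mostly of KRT8 (means 108 and 246 CPM) and KRT18 (110 and 135 CPM). Of 7 megakaryocytic markers 4 rose and 1 fell (15.8 to 16.4 CPM and 44.4 to 54.2 CPM). That sum was mostly SELP (means 5.255 and 21.3 CPM) and RAB27B (7.385 and 20.9 CPM), with PF4 at 0.415 and 3.74 CPM and PPBP at 0 in every library. Of 13 mesenchymal and smooth muscle markers 1 rose and 6 fell (1966 to 2599 CPM and 1500 to 2050 CPM, none at 0 throughout). Of 6 blood and myeloid markers 2 fell (293 to 311 CPM and 239 to 267 CPM, with PTPRC, MPO and SPI1 at 0), a sum almost all of LAPTM5 (means 289.5 and 244 CPM). Over all genes tested 24.2% rose and 23.3% fell. The part of these cell types in the changes below was not tested. In such bulk libraries, fewer cells of a type and less RNA per cell cannot be told apart.

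Among the 9 ligands, BMP6, BMP2 and INHBA rose, BMP4 and TGFB2 fell, and TGFB1, TGFB3, BMP7 and INHBB were not called. BMP6 (chromosome 6, 7726797 to 7881422, GRCh38), a BMP made by endothelial cells and known as a regulator of iron balance, read 183, 173 and 185 CPM in the untreated libraries and 271, 268 and 271 CPM with lipoic acid. All lipoic acid libraries lay above all untreated ones, and the fit gave a 1.50-fold rise from 180 ± 6.17 to 270.0 ± 1.39 CPM (SD, n = 3 each, adjusted p = 2.69e-05). BMP4 (chromosome 14, 53949736 to 53958761), the ligand that induces mesoderm and blood, moved the other way. It read 113, 121 and 106 CPM untreated and 85.1, 91.2 and 78.95 CPM with lipoic acid, without overlap. The fall was 1.33-fold, from 113 ± 7.63 to 85.1 ± 6.13 CPM (adjusted p = 0.00163).

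These were the most abundant of the 9 ligand transcripts per length. Per kilobase of exon, BMP6 stood at 64.9 CPM and BMP4 at 36.8 CPM in untreated cells, and at 97.1 and 27.6 CPM with lipoic acid, while none of the other 7 passed 1.97 CPM per kilobase in either group. The ratio of BMP6 to BMP4 per kilobase was 1.80, 1.58 and 1.93 in the untreated libraries and 3.52, 3.26 and 3.81 with lipoic acid. BMP6 took 61.9% ± 2.18 of the summed level of the 9 ligands per kilobase untreated and 75.6% ± 1.23 with lipoic acid, and BMP4 35.1% ± 2.31 and 21.5% ± 1.30 (SD, n = 3 each). With the length of the longest transcript in place of the joined exons, BMP4 stood at 59.2 CPM per kilobase in untreated cells and BMP6 again at 64.9, so their order held with a smaller gap.

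The other called ligands were rare transcripts. INHBA, whose product dimerises to activin A, read 1.91, 1.16 and 1.63 CPM untreated and 5.58, 6.71 and 7.06 CPM with lipoic acid. Its groups lay far apart, with a 4.10-fold rise (log2 fold change 2.04, SE 0.25, adjusted p = 0.000148). BMP2, a BMP close in sequence to BMP4, read 3.20, 3.79 and 4.06 CPM untreated and 5.98, 8.17 and 7.11 CPM with lipoic acid, a 1.92-fold rise (adjusted p = 0.00355). TGFB2, a TGF-beta ligand, read 3.32, 4.39 and 3.99 CPM untreated and 0.897, 0 and 0.580 CPM with lipoic acid. Every lipoic acid library lay below every untreated one, and the fitted log2 fold change was -2.94 (SE 0.71, adjusted p = 0.0069); without lipoic acid replicate 1 it was -3.64 and without lipoic acid replicate 2, the library at 0, -2.39. TGFB2 shares 0.266 of its exonic length with TGFB2-OT1 on the same strand, so its reads and those of that gene may not be separable.

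The remaining ligands were low and not called. TGFB1, the major TGF-beta of most tissues, averaged 1.80 ± 0.235 CPM untreated and 1.39 ± 0.335 CPM with lipoic acid (adjusted p = 0.394). TGFB3 averaged 1.05 and 0.482 CPM, and its groups did not overlap although it was not called (adjusted p = 0.0797), except as lower by limma voom (0.0312). INHBB, an activin and inhibin subunit, averaged 1.34 and 0.969 CPM (adjusted p = 0.366), and BMP7 0.195 and 0.575 CPM (adjusted p = 0.159).

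**Figure D2:**
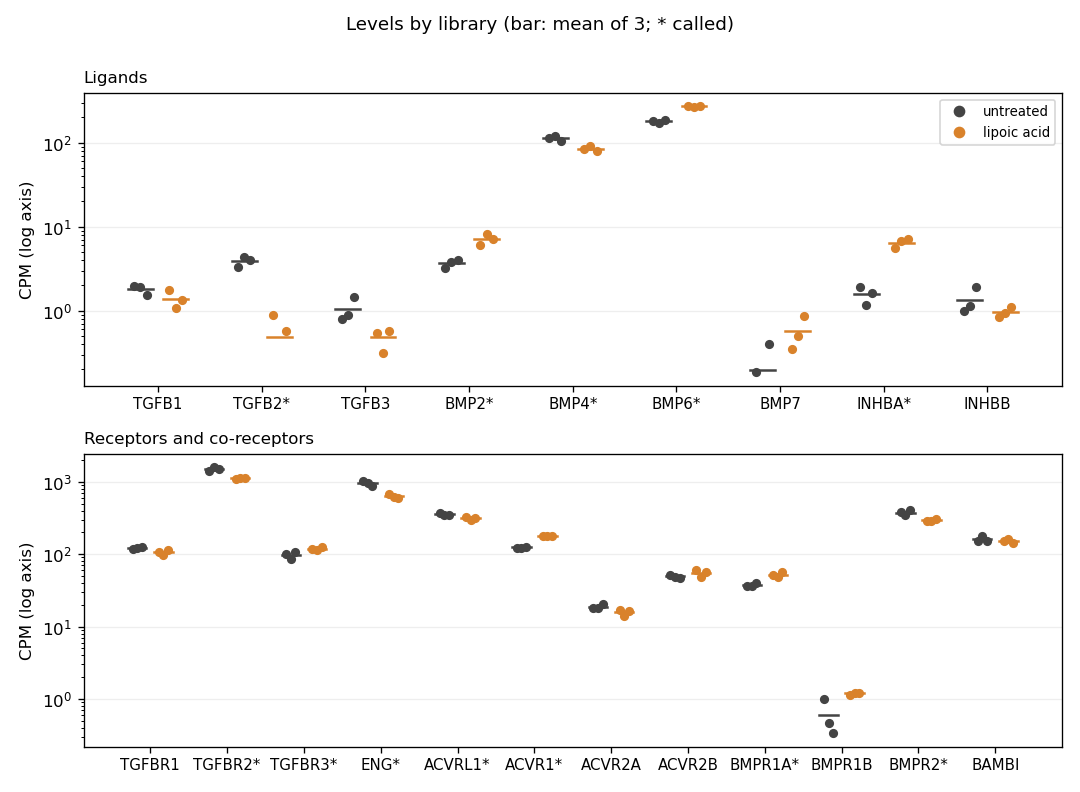
CPM (vertical, log axis) of each ligand and each receptor or co-receptor in the 3 untreated (grey) and 3 lipoic acid (orange) libraries, with a bar at each group's mean and an asterisk on called genes; values of 0 (TGFB2 in lipoic acid replicate 2 and BMP7 in untreated replicate 2) have no point. BMP6 and BMP4 stand well above the other 7 ligands plotted, and the groups of TGFBR2, ENG, ACVR1 and BMPR2 do not overlap.

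The receptors and co-receptors were led by TGFBR2 and ENG, both of which fell. TGFBR2 (chromosome 3, 30606502 to 30694142), the type II receptor that binds TGF-beta, read 1408, 1583 and 1492 CPM untreated and 1108, 1130 and 1130 CPM with lipoic acid. The groups did not overlap, and the fall was 1.33-fold, from 1494 ± 87.4 to 1123 ± 12.9 CPM (adjusted p = 0.000184). ENG (chromosome 9, 127815012 to 127854756), the endothelial co-receptor endoglin, read 1033, 977 and 889 CPM untreated and 676, 625 and 605 CPM with lipoic acid. It fell 1.52-fold (log2 fold change -0.61, SE 0.07, adjusted p = 7.9e-05). In the same libraries the endothelial markers CD34, CDH5 and PECAM1 fell 1.78-fold, 1.55-fold and 1.27-fold, while KDR and TEK rose 1.17-fold and 1.20-fold. Whether these changes have a common source was not tested. Per kilobase of exon TGFBR2 stood at 318 and ENG at 246 CPM in untreated cells, in the top 1% of the genes ranked (percentiles 99.4 and 99.2).

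Type I receptors split. ACVR1 (chromosome 2, 157736444 to 157875862), which encodes the BMP type I receptor ALK2, read 122, 123 and 127 CPM untreated and 179, 177 and 179 CPM with lipoic acid. The spread within groups was very small, and the 1.44-fold rise from 124 ± 2.27 to 178 ± 1.06 CPM passed the test (adjusted p = 5.28e-05). BMPR1A, which encodes the BMP receptor ALK3, read 36.5, 36.3 and 39.8 CPM untreated and 51.8, 48.4 and 55.8 CPM with lipoic acid, a 1.39-fold rise (adjusted p = 0.000945). ACVRL1, the endothelial type I receptor ALK1, read 374, 352 and 352 CPM untreated and 327, 294 and 316 CPM with lipoic acid. That 1.15-fold fall (adjusted p = 0.0174) was not called without untreated replicate 1 (adjusted p = 0.0598) or without lipoic acid replicates 2 (0.0917) or 3 (0.0663). TGFBR1, the TGF-beta type I receptor ALK5, averaged 122 ± 4.11 and 107 ± 8.03 CPM and missed the threshold (adjusted p = 0.0509), although its groups did not overlap. It was called lower in 8 of the 19 other settings, among them the fit without untreated replicate 2 (adjusted p = 0.0484) and that with the GC and length correction (0.00331). BMPR1B, the BMP receptor ALK6, was rare, at 0.594 and 1.19 CPM, and was called only without untreated replicate 1 (log2 fold change 1.57, adjusted p = 0.0314) and by limma voom (0.0279). The ratio of ACVR1 to ACVRL1 per kilobase was 0.414, 0.442 and 0.455 untreated and 0.692, 0.761 and 0.715 with lipoic acid.

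Of the other type II receptors and co-receptors, BMPR2 fell and TGFBR3 rose. BMPR2, the type II receptor for BMPs, read 382, 343 and 404 CPM untreated and 285, 286 and 306 CPM with lipoic acid, a 1.29-fold fall without overlap (adjusted p = 0.00177). TGFBR3, the co-receptor betaglycan, read 99.9, 85.4 and 107 CPM untreated and 118, 115 and 124 CPM with lipoic acid. This 1.22-fold rise (adjusted p = 0.0182) was not called without lipoic acid replicate 3 (0.0677) or under the GC and length correction (0.14). The activin type II receptors were not called: ACVR2A averaged 18.7 and 15.7 CPM (adjusted p = 0.0959) and ACVR2B 49.3 and 55.2 CPM (adjusted p = 0.152). ACVR2B was called higher without lipoic acid replicate 2 (0.0375) and by limma voom (0.0314). ACVR2A was called lower by limma voom (0.0397) and under the GC and length correction, alone (0.00882) or with the replicate block (0.0159). BAMBI, a decoy receptor that lacks a kinase, averaged 162 ± 16.8 and 153 ± 8.91 CPM (adjusted p = 0.457). Summed per kilobase, the 12 receptors and co-receptors gave 785 to 829 CPM in untreated libraries and 631 to 648 CPM with lipoic acid. The summed ligands gave 104.5 to 105.2 CPM per kilobase untreated and 127.1 to 130 CPM with lipoic acid. Each sum was carried by a pair of genes, the receptor sum by TGFBR2 (318 and 239 CPM per kilobase) and ENG (246 and 161) and the ligand sum by BMP6 and BMP4, so neither describes its class as a whole.

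Among the 8 SMAD genes the inhibitory pair fell, SMAD3 and SMAD5 rose, and the other 4 were not called. SMAD6 (chromosome 15, 66702228 to 66782848), an inhibitor mainly of BMP signals that is itself a BMP target, read 114, 101 and 102 CPM untreated and 78.6, 76.5 and 73.6 CPM with lipoic acid. The groups did not overlap, and the fall was 1.39-fold, from 106 ± 7.49 to 76.2 ± 2.50 CPM (adjusted p = 0.000462). SMAD7 (chromosome 18, 48919853 to 48952052), which blocks both TGF-beta and BMP receptors and is induced by TGF-beta, read 44.5, 44.8 and 38.7 CPM untreated and 33.2, 31.8 and 28.3 CPM with lipoic acid. Its 1.37-fold fall (log2 fold change -0.46, SE 0.09, adjusted p = 0.00237) was close in size to that of SMAD6 (log2 fold change -0.47, SE 0.07).

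Of the receptor-regulated SMADs, SMAD3 and SMAD5 rose by small amounts. SMAD3, on the TGF-beta and activin side, read 37.8, 40.2 and 36.4 CPM untreated and 47.3, 48.7 and 42.5 CPM with lipoic acid (1.21-fold, adjusted p = 0.0168). SMAD5, on the BMP side, read 97.6, 88.3 and 100.2 CPM untreated and 110, 107 and 126 CPM with lipoic acid (1.20-fold, adjusted p = 0.0228). The GC and length correction ended both calls (adjusted p = 0.247 and 0.416). SMAD3 also lost its call without untreated replicate 3 (0.0589) or lipoic acid replicates 1 (0.0566) or 2 (0.0576), and SMAD5 without lipoic acid replicate 3 (0.0969) or in the 4 libraries of even counts (0.0875). SMAD2 averaged 189 ± 14.1 and 180 ± 3.05 CPM (adjusted p = 0.401), SMAD1 15.6 ± 1.66 and 16.9 ± 0.819 CPM (0.425), and SMAD9 21.8 ± 1.34 and 22.6 ± 1.71 CPM (0.698). SMAD4, the partner common to both sides, averaged 89.8 ± 9.31 and 99.8 ± 1.50 CPM (0.135). It was called higher without untreated replicate 2 (0.0105) and by limma voom (0.0211), and its log2 fold change in the 4 libraries of even counts was 0.303.

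By level per kilobase of exon in untreated cells, SMAD6 (12.4 CPM per kilobase) came first, then SMAD5 (10.6), SMAD7 (8.48), SMAD4 (6.84), SMAD2 (5.19), SMAD3 (4.18), SMAD9 (3.82) and SMAD1 (2.58). With lipoic acid the first place passed to SMAD5 (12.6), ahead of SMAD6 (8.90), SMAD4 (7.60) and SMAD7 (6.18). The inhibitory SMAD6 took 22.9% ± 1.37 of the summed SMAD level per kilobase untreated and 17.1% ± 0.570 with lipoic acid, and SMAD7 15.7% ± 0.984 and 11.9% ± 0.964 (SD, n = 3 each). This order depends on the gene model: by longest transcript SMAD1 stood at 4.74 and SMAD6 at 20.3 CPM per kilobase in untreated cells.

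All 6 SMAD partners were called (against 47.4% of all genes), 3 in each direction, with PMEPA1 and SKIL falling most. PMEPA1 (chromosome 20, 57648392 to 57711536), a TGF-beta target that keeps SMAD2 and SMAD3 from the receptor, read 134, 142 and 126 CPM untreated and 79.4, 73.5 and 76.1 CPM with lipoic acid. It fell 1.76-fold, from 134 ± 7.75 to 76.3 ± 2.96 CPM, with the lowest adjusted p of all members (1.42e-05). SKIL (chromosome 3, 170357678 to 170396835), which encodes the SMAD corepressor SnoN and is itself induced by TGF-beta, read 67.4, 67.7 and 69.1 CPM untreated and 38.7, 31.0 and 36.5 CPM with lipoic acid. The groups lay far apart, with a 1.92-fold fall (log2 fold change -0.94, SE 0.09, adjusted p = 2.69e-05). SKI, the related corepressor, read 7.01, 6.98 and 7.28 CPM untreated and 5.08, 5.57 and 4.83 CPM with lipoic acid. Its 1.38-fold fall was near the threshold (adjusted p = 0.0423) and was not called in 10 of the 19 other settings, among them every omission of 1 library except that of untreated replicate 2 (0.051 to 0.144 for the other 5) and the replicate block (0.0585).

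The partners that rose were the ubiquitin ligases and TGIF1. SMURF1, which marks BMP SMADs and receptors for degradation, read 37.8, 44.5 and 34.7 CPM untreated and 47.4, 52.1 and 46.9 CPM with lipoic acid (1.25-fold, adjusted p = 0.0203). SMURF2, its relative, read 189, 179 and 196 CPM untreated and 219, 229 and 230.2 CPM with lipoic acid (1.20-fold, adjusted p = 0.00387). TGIF1, a homeodomain corepressor of SMAD2 and SMAD3, read 62.0, 70.5 and 57.6 CPM untreated and 85.6, 78.7 and 76.3 CPM with lipoic acid (1.27-fold, adjusted p = 0.00838). In each case all lipoic acid libraries lay above all untreated ones. None of these rises was called under the GC and length correction (adjusted p = 0.198 for SMURF1, 0.27 for SMURF2 and 0.146 for TGIF1). SMURF1 also lost its call without untreated replicate 3 (0.0744) or lipoic acid replicate 2 (0.073).

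Sequence ahead of the annotated start is shown for SMAD6, PMEPA1 and SKIL, feedback genes that fell, and for ACVR1, a receptor gene that rose, because all 4 hold letters known from SMAD-binding DNA. Windows were the 250 bases before each RefSeq start (GRCh38.p14), found for 42 members with 83 starts; ACVRL1, BMP2, BMP7, NOG and SKI are without one. The motifs searched on both strands were GTCTAGAC (the palindromic SMAD element), CAGACA (the CAGA box, TGTCTG on the other strand) and GGCGCC (a GC-rich palindrome bound by SMADs), and no match of one motif overlapped a match of another in the stretches shown. Capitals mark the matches, each stretch runs 5′ to 3′ on the strand of its gene, and coordinates precede the sequence.
SMAD6, chr15:66702116-66702235, plus strand: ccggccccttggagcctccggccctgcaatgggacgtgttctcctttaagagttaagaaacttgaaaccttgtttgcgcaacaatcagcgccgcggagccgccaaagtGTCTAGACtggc
PMEPA1, chr20:57710638-57710757, minus strand: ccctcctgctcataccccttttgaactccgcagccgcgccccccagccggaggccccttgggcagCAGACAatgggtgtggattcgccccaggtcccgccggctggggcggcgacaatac
SKIL, chr3:170357465-170357584, plus strand: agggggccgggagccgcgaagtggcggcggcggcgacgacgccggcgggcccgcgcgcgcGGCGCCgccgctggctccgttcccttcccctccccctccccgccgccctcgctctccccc
ACVR1, chr2:157876381-157876530, minus strand: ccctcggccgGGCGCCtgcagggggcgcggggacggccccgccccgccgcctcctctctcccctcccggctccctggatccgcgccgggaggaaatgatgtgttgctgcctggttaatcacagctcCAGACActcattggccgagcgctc

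The palindrome of SMAD6 begins 12 bases before the RefSeq start. The gene span of SMAD6 given above, from GENCODE, begins at 66702228, inside the match. SMAD6 was the sole member with this palindrome (1 of 83 member windows, against 0.182% of all 35116 windows). CAGACA lay in 7 of 24 windows of members that fell (29.2%, 6 of 13 genes) and in 5 of 26 windows of members that rose (19.2%, 3 of 13 genes). It lay in 4 of 33 windows of members not called (12.1%, 3 of 16 genes) and in 13.6% of all windows (4445 of 27305 genes). GGCGCC lay in 5 of 24 windows of members that fell (20.8%), 4 of 26 of members that rose (15.4%), 9 of 33 of members not called (27.3%) and 16.4% of all windows, so its share was highest in members not called. Windows of 1 gene can overlap, so they are not independent, and a match is only a description of letters. Each stretch shown comes from the first window of its gene that held the motif, so it was picked for its match. The stretch shown for PMEPA1 lies upstream of 1 of its 4 starts, within an exon of the antisense gene NKILA. The RefSeq start used for ACVR1 lies outside the gene span given above, which ends at 157875862.

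**Figure D3:**
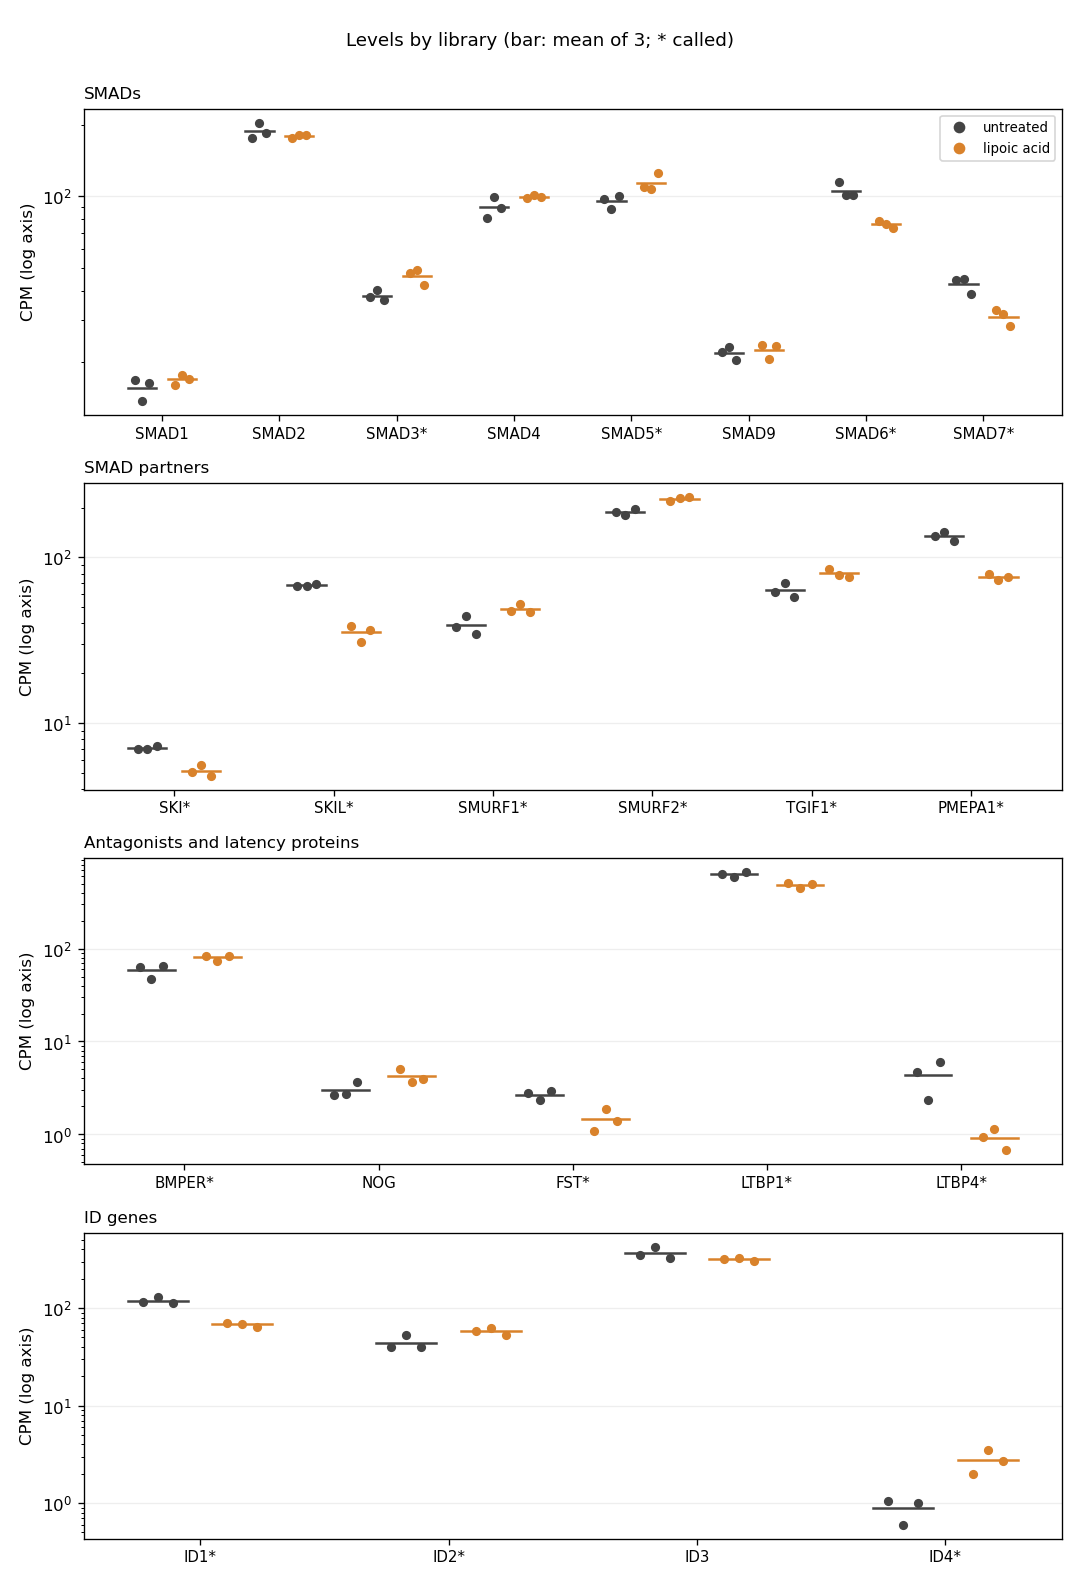
CPM (vertical, log axis) of SMADs, SMAD partners, antagonists and latency proteins, and ID genes in the 3 untreated (grey) and 3 lipoic acid (orange) libraries, with a bar at each group's mean and an asterisk on called genes. SKIL and PMEPA1 in lipoic acid libraries lie below 39 and 80 CPM, under all untreated libraries, while ID1 falls and ID2 and ID4 rise.

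Of the 8 antagonists and latency proteins, LTBP1, LTBP4 and FST fell, BMPER rose, NOG was not called and 3 were too low to test. LTBP1 (chromosome 2, 32946972 to 33399509), which stores latent TGF-beta in the matrix, made up most of this class, at 86.0 CPM per kilobase of exon in untreated cells against 7.35 for BMPER, the next. It read 641, 584 and 666 CPM untreated and 500.4, 447 and 498 CPM with lipoic acid, a 1.31-fold fall without overlap (adjusted p = 0.00111). LTBP4, another latent TGF-beta binding protein, read 4.74, 2.36 and 5.98 CPM untreated and 0.947, 1.14 and 0.677 CPM with lipoic acid. Its fall was 4.75-fold (log2 fold change -2.25, SE 0.39, adjusted p = 0.00111). LTBP3, not tested, was at 0 in every lipoic acid library and at 0, 0.266 and 0.133 CPM in the untreated ones. Untreated replicate 1, the untreated library of even counts, was thus also at 0, and the groups overlapped. The pooled untreated level (0.157 CPM) was 2.96-fold above a floor of 3 counts over the lipoic acid group (0.053 CPM), which covers counting error alone.

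BMPER, an endothelial regulator that binds BMPs, was the antagonist that rose. It read 62.8, 46.6 and 65.3 CPM untreated and 83.5, 72.9 and 83.9 CPM with lipoic acid, a 1.38-fold rise (log2 fold change 0.46, SE 0.12, adjusted p = 0.00966). NOG, the BMP antagonist noggin, read 2.65, 2.73 and 3.62 CPM untreated and 5.03, 3.67 and 3.96 CPM with lipoic acid, without overlap and without a call (adjusted p = 0.115). FST, the activin antagonist follistatin, read 2.77, 2.33 and 2.93 CPM untreated and 1.10, 1.90 and 1.40 CPM with lipoic acid. The 1.83-fold fall of FST was near the threshold (adjusted p = 0.0416). It was not called without untreated replicates 1 (0.0918) or 3 (0.122) or without lipoic acid replicates 1 (0.136) or 3 (0.118). Nor was it called with the replicate block, alone (0.0708) or with the GC and length correction (0.0503). In the 4 libraries of even counts the log2 fold change of FST was -0.921. GREM1, the BMP antagonist gremlin, read 0.0615, 0.266 and 0.299 CPM untreated and 0 in every lipoic acid library, and was not tested. Its pooled untreated level (0.236 CPM) was 4.44-fold above the same floor. Untreated replicate 1, the untreated library of even counts, held a count of only 2, against 8 and 9 in the other untreated libraries. Its 0.0615 CPM was near that floor (0.053 CPM), so the bound rests mostly on the other untreated libraries. CHRDL1, a chordin-like antagonist, was at 0 throughout; a count of 0 leaves room for 0.0393 CPM in the untreated group and 0.053 CPM in the lipoic acid group, by counting error only.

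The ID genes, which encode helix-loop-helix inhibitors of differentiation and are classical BMP targets, moved apart. ID1 (chromosome 20, 31605283 to 31606515) read 114, 129 and 113 CPM untreated and 71.0, 68.6 and 64.5 CPM with lipoic acid. The groups were widely separated, and ID1 fell 1.75-fold, from 119 ± 8.62 to 68.1 ± 3.28 CPM (adjusted p = 2.59e-05). ID2 (chromosome 2, 8678845 to 8684453) read 40.1, 52.8 and 39.9 CPM untreated and 58.1, 63.1 and 53.4 CPM with lipoic acid. Its lowest lipoic acid library lay just above its highest untreated one, and the 1.31-fold rise (adjusted p = 0.0166) was not called without untreated replicate 3 (0.0661) or lipoic acid replicate 2 (0.0665). ID4, a rare transcript here, read 1.05, 0.599 and 0.997 CPM untreated and 1.99, 3.55 and 2.71 CPM with lipoic acid, a 3.10-fold rise (log2 fold change 1.63, SE 0.37, adjusted p = 0.00469).

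ID3, the most abundant ID transcript per kilobase (205 CPM per kilobase of exon untreated and 176 with lipoic acid), read 350, 428 and 325 CPM untreated and 316, 327 and 305 CPM with lipoic acid. Those groups overlapped and ID3 was not called (adjusted p = 0.0707), except without untreated replicate 3 (0.0267), by DESeq2 (0.0441) and with the replicate block (0.0319), where it was lower. The ratio of ID1 to ID2 per kilobase was 5.10, 4.36 and 5.07 in untreated libraries and 2.19, 1.94 and 2.16 with lipoic acid. The share of ID1 in the summed ID level per kilobase was 30.1% ± 1.55 untreated and 21.4% ± 0.678 with lipoic acid, and that of ID2 6.23% ± 0.294 and 10.2% ± 0.455 (SD, n = 3 each).

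**Figure D4:**
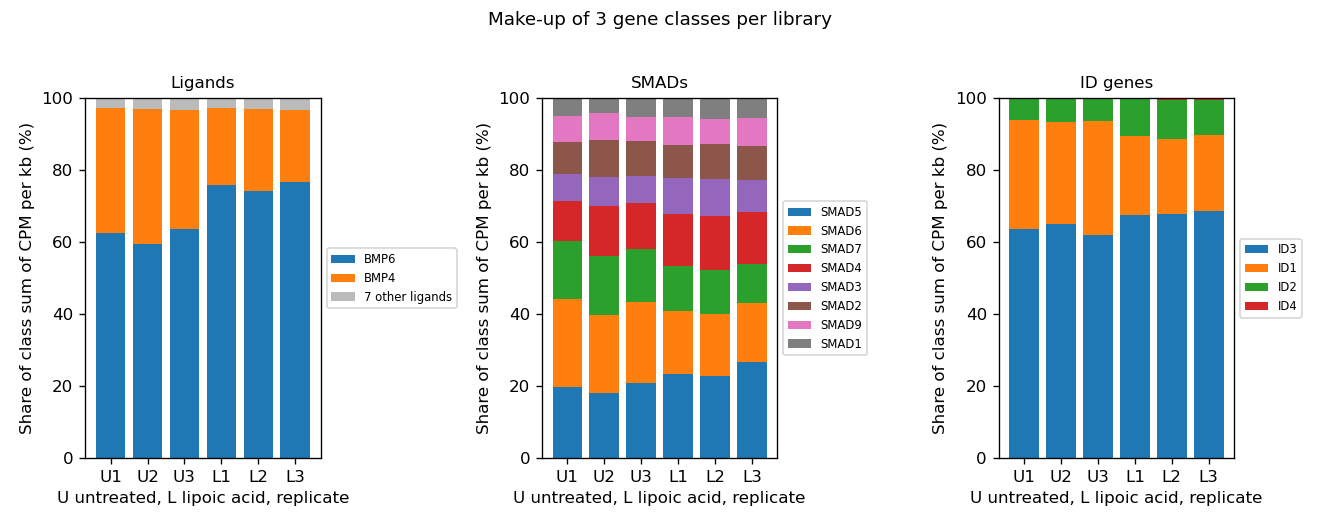
Share (%) of each gene in the summed CPM per kilobase of its class, for ligands, SMADs and ID genes, in untreated (U1 to U3) and lipoic acid (L1 to L3) libraries. BMP6 takes 59.5% to 63.7% of the sum of the 9 ligands untreated and 74.3% to 76.7% with lipoic acid, and the share of ID1 is lower in every lipoic acid library than in every untreated one.

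A wider list of 88 other genes of these pathways, of which 73 passed the filter, was also followed. Of these, 18 rose (24.7%, against 24.2% of all genes) and 23 fell (31.5%, against 23.3%), with a median log2 fold change of -0.01. Its 23 tested target genes held 11 falls (47.8%) and 4 rises (17.4%), with a median log2 fold change of -0.26. UNC5B, a netrin receptor of endothelium, read 726, 619 and 645 CPM untreated and 405, 372 and 379 CPM with lipoic acid (1.72-fold lower, adjusted p = 1.96e-05). SNAI2, a repressor active in endothelial to mesenchymal change, fell 1.79-fold from 80.0 ± 3.14 to 44.7 ± 3.08 CPM (adjusted p = 2.05e-05), and HEY2, a target of Notch as well as BMP signals, 2.30-fold, from a mean of 140 ± 9.95 CPM to 60.7, 58.3 and 64.1 CPM (adjusted p = 2.04e-06).

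Of 13 other antagonists and latency genes tested, 5 rose (38.5%, against 24.2% of all genes) and 4 fell (30.8% against 23.3%). LRRC32, which encodes the surface docking protein GARP for latent TGF-beta, rose 1.39-fold from 395 ± 14.3 to 550 ± 14.9 CPM (adjusted p = 7.53e-05). NBL1, which encodes a BMP antagonist, fell 2.12-fold from 24.5 ± 1.64 to 11.6 ± 2.81 CPM (adjusted p = 0.000572). Among 6 other receptors tested, NEO1, a receptor that also binds RGM co-receptors of BMPs, fell 1.95-fold (adjusted p = 9.65e-05) and ACVR1B, the activin receptor ALK4, 1.32-fold (0.00296). RGMB, such a co-receptor, rose 1.28-fold (0.011), though 0.456 of its exonic length is covered by genes on the other strand and strand use in counting is not given in the sources used here.

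Inside the cell, 4 of 17 other genes rose (23.5%, against 24.2% of all genes) and 5 fell (29.4% against 23.3%), shares near those over all genes. NEDD4L, a ubiquitin ligase for activated SMAD2 and SMAD3, rose 2.10-fold from 36.2 ± 4.96 to 76.1 ± 6.93 CPM (adjusted p = 4.54e-05), and the kinase gene HIPK2 1.45-fold (0.00019), while the corepressor TGIF2 fell 1.40-fold (0.000585). Of 14 other ligands tested 4 rose (28.6%, against 24.2% of all genes) and 1 fell (7.14% against 23.3%). GDF9 and BMP3 had no count in untreated libraries and read 2.84, 2.79 and 3.92 CPM and 1.84, 1.27 and 1.45 CPM with lipoic acid, at least 81.9-fold and 39.1-fold higher against the floor of 3 counts over the group. BMP10, a ligand of ACVRL1, read 0.185, 0.0998 and 0.0665 CPM untreated and 1.74, 2.22 and 1.60 CPM with lipoic acid (log2 fold change 3.93, SE 0.51, adjusted p = 0.000204).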

How the data were processed

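The table deposited by the authors holds raw counts for each gene symbol. The tools listed are HISAT2, featureCounts and DESeq2, and the build is hg38, per the submitters' processing notes. Tool versions, options, annotation, strand setting and handling of multiply aligned reads are not given in the sources used here. No sample column was left unused. Counts were analysed in R 4.3.3 with edgeR 4.0.16: genes were kept by filterByExpr (13780 tested), scaled by TMM and tested by quasi-likelihood F test (model: group alone) over all genes, with Benjamini-Hochberg adjustment. The SE is the log2 fold change divided by the root of F. The scripts were tested on simulated data. Total counts ran from 30041494 to 41351951 per library; floors and their 3 counts cover counting error alone, with even counts halved, since the cDNA was amplified without stated molecular barcodes. No replicate pair agreed within sampling noise (mean chi-square of 3.16 to 21.3 per gene, where noise alone gives about 1).

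Exon lengths, positions and overlaps (reported from 20%) came from GENCODE v29 on GRCh38, which held 99.36% of the symbols, and promoter sequences from RefSeq on GRCh38.p14. The members, lists, motifs and tests were chosen with earlier results of these data known. Every member is named, called ones with each library's value; of the other pathway genes up to 3 called genes per class with the lowest p are named, except 1 that is not reported here. Alternatives were relative log expression or upper-quartile scaling, no filter or a minimum of 1 CPM throughout a group, DESeq2 1.42.0, limma 3.58.1 voom with quality weights, robust moderation, the replicate block, removal of a GC content and length trend (alone and with the block), leaving out each library, halving even counts, the 4 libraries of even counts alone, and removing mitochondrially encoded genes.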

Additional observations from a re-analysis of the deposited data

How the results depend on the processing

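Over 19 settings and 44 tested members, 757 of 832 fold changes kept their direction and their side of the threshold, 42 lost a call, 22 gained one and 11 changed sign, none of the last called in either fit. Those were ACVR2B (log2 fold change -0.007 under the GC and length correction and -0.003 with the replicate block added), SMAD1 (-0.036 in both), SMAD4 (-0.028 and -0.015), SMAD9 (-0.113 and -0.108), BAMBI (0.012 without untreated replicate 2, the highest value with 1 library left out, the lowest being -0.114, and 0.023 in the libraries of even counts) and SMAD2 (0.028 in those libraries). The cause was not tested. Members called higher numbered 14, but 8 under that correction, alone or with the replicate block, and 2 at 2-fold or more; members called lower numbered 15, and 2 at 2-fold or more. Leaving out 1 library at a time gave 11 to 15 members higher and 12 to 16 lower, and 14 to 19 other pathway genes higher and 22 to 26 lower. The correction shifted the median log2 fold change of all genes by -0.10. Of 94 levels per kilobase, 57 moved by more than 1 SD with the longest transcript in place of joined exons.

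With the replicate number as a block, 14 members were higher and 15 lower, and 27 of the 29 calls held (SKI and FST did not). The labels do not say that a number marks a shared culture, and deviations from group means correlated at 0.06, 0.06 and 0.08 for numbers 1 to 3, under the 0.1 set for pairing, though each library correlated best with its own number. Calls of rare members such as TGFB2, LTBP4 and ID4 rest on few reads, and the depth allows no fold for CHRDL1.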
